A study of Mus musculus with 4 samples.

Results

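Among the transcripts of multicilia purified from cultured mouse ependymal cells (mEPCs), 159 rows of 158 genes were listed at 0 in both libraries made after Fmr1 knockdown and above 0 in both control libraries. They were chosen by that pattern of FPKM alone from a table of 12515 transcript rows, leaving out the rows of Fmr1, Ttll9 and Ttll10, which share it. The pattern itself held in 162 rows, or 1.29% of the table. The values that chose the rows come from the same comparison as everything said below on their levels, so levels, sums and directions are given as descriptions with no test.

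Cells were transfected with 40 pmol siRNA, either Fmr-i1, which targets Fmr1, or Ctrl-i as the control. There was 1 library of each kind in Exp.1 and 1 in Exp.2, which makes 2 libraries per group and 4 in all. The study's methods speak of more replicates for the sequencing than these labels show. All cells were grown from the telencephalon of C57BL/6 pups of postnatal day 0 to 1, were transfected repeatedly, were starved of serum so that they became multiciliated, and were harvested at day 10. By the study's methods the multicilia came off with their apical cortexes, so RNA of the ciliary shaft is not separated here from RNA of the cortex. Each library holds a flask of many cells, and no source used here says whether the experiments used different litters. In such bulk RNA, fewer cells or cilia of a kind and less RNA per cell cannot be told apart.

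Fmr1 encodes FMRP, an RNA-binding protein known for carrying and holding back mRNAs in neuronal dendrites, and its loss causes fragile X syndrome in humans. Ependymal cells line the brain ventricles and beat bundles of motile cilia that move cerebrospinal fluid. Most mammalian genes give several transcripts through alternative splicing and alternative starts and ends. Some of these keep an intron or carry an early stop codon, which marks the RNA for nonsense-mediated decay.

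The siRNA's own target was listed at 0 in both Fmr-i1 libraries. In Ctrl-i it had 0.42 FPKM in Exp.1 and 8.13 FPKM in Exp.2. FPKM is the number of sequenced fragments per kilobase of transcript, scaled to the size of the library. The label check therefore rests mainly on Ctrl-i Exp.2. The markers of ependymal cells were present, with 22 of 24 listed genes in the table and none of their rows among the 159. Their summed level was 1978 and 1753 FPKM in Fmr-i1, against 1920 and 3130 FPKM in Ctrl-i.

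No row of the table was at 0 in a Ctrl-i library, and no row was at 0 in just one of the Fmr-i1 libraries. A 0 therefore always came as a pair. The lowest value above 0 was 0.01 FPKM, and 60 further rows were below 0.05 FPKM in both Fmr-i1 libraries without being listed at 0. In the other direction 78 rows were below 0.05 FPKM in both Ctrl-i libraries. A 0 in a table of FPKM can also be an estimate that failed, so the text says "listed at 0" and draws no fold change against it.

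The 159 rows were low in the controls too. Their Ctrl-i level, averaged over both libraries, had a median of 1.35 FPKM and ran between 0.11 and 24.5 FPKM, beside a median of 8.15 FPKM for the 12353 rows above 0 in all libraries. The lowest 25% of the table held 134 of them, or 84.3%. A level of at least 1 FPKM in both Ctrl-i libraries was reached by 72 rows, 5 FPKM by 8 rows and 10 FPKM by 2 rows.

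The Ctrl-i libraries often differed from each other on these rows. They lay within 1.5-fold of each other for 65 rows and over 3-fold apart for 41. The median fold between them was 1.81 for the 159 rows, beside 1.69 for the 4358 other rows of up to 5 FPKM and 1.43 for all rows above 0. Exp.1 was the higher library for 90 rows and Exp.2 for 69. In 10 rows a Ctrl-i library was itself below 0.1 FPKM. One of these was a row of Pbx2, a homeodomain protein that pairs with Meis and Hox factors. That row was at 0 in both Fmr-i1 libraries against 5.40 and 0.01 FPKM in Ctrl-i. The gene's other row had 10.23 and 7.48 FPKM in Fmr-i1, against 1.88 and 7.90 FPKM in Ctrl-i. Another of the 10 was Pcdh9, a protocadherin of cell adhesion, at 0 in both Fmr-i1 libraries against 0.01 and 1.53 FPKM in Ctrl-i.

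**Figure D1:**
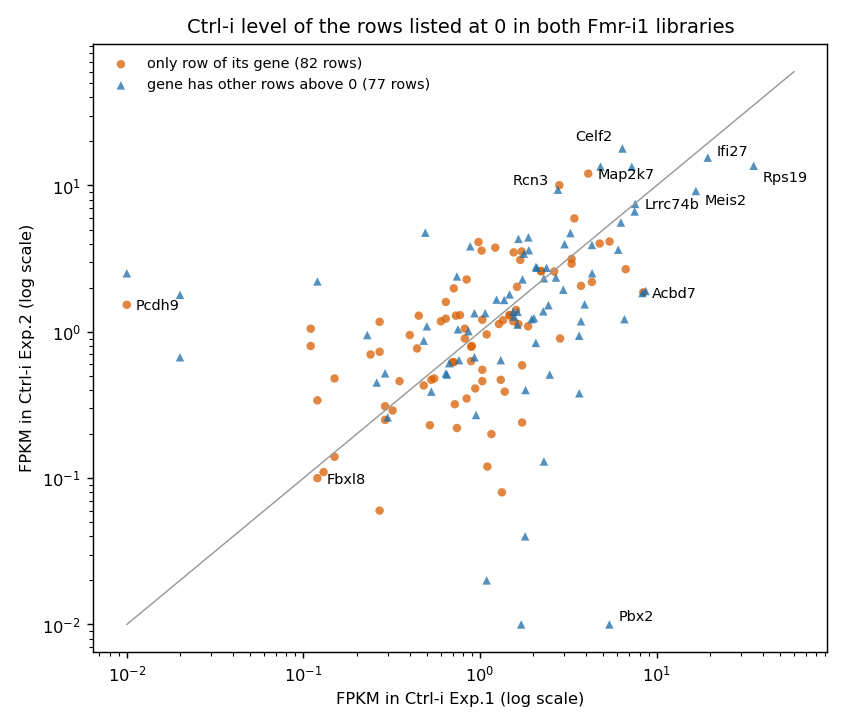
Each point is a row listed at 0 in both Fmr-i1 libraries, placed by its FPKM in Ctrl-i Exp.1 (x axis) and Ctrl-i Exp.2 (y axis), both on log scales. Circles are the only row of their gene (82 rows), triangles belong to genes with other rows above 0 (77 rows), and the grey line marks equal values; most points sit near or below 1 to 3 FPKM and many lie far from the line.

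The deposited table holds no fragment counts, yet its low values show how many fragments stood behind them. When FPKM was multiplied by the annotated transcript length in kilobases, the low values of genes with a single row fell on whole multiples of a library's own step. The step was 1.045 and 0.94 FPKM x kb in Fmr-i1 Exp.1 and Exp.2, and 1.1125 and 0.985 FPKM x kb in Ctrl-i Exp.1 and Exp.2. At these steps 62.9%, 61.8%, 63.2% and 62.5% of the low values were whole within 0.05 of a step, beside a median of 8.14% to 8.63% over all step sizes tried. A step this size implies 956938 and 1063830 fragments for the Fmr-i1 libraries, against 898876 and 1015230 for the Ctrl-i libraries. Values divided by the step are called fragment equivalents here; they need not be whole. Of the 81 single rows listed at 0 with an annotated length, 33 were whole within 0.1 in both Ctrl-i libraries, and of the 76 rows in genes with several rows 7 were.

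**Figure D2:**
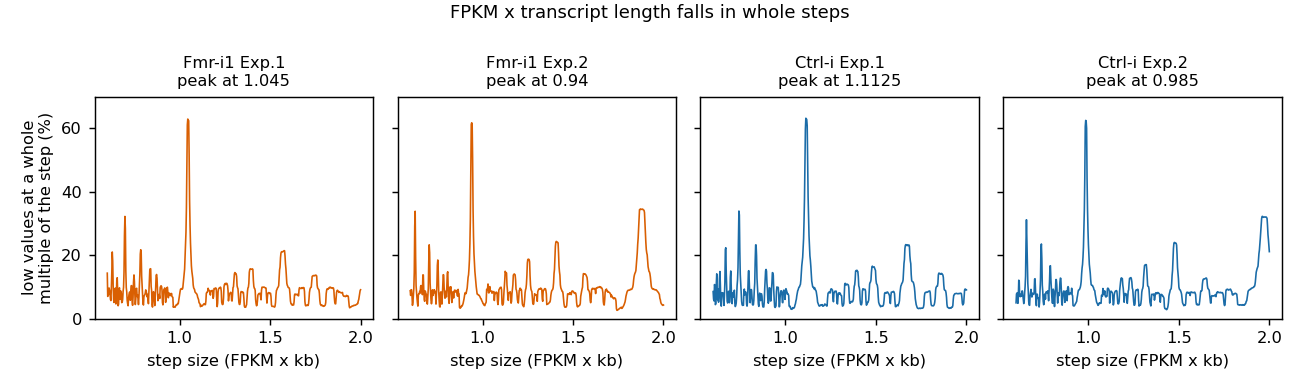
For each library, the percentage of low values of single-row genes (y axis) that lie within 0.05 of a whole multiple of a trial step size in FPKM x kb (x axis). Each library has one tall peak, between 61.8% and 63.2%, at its own step, with lower peaks at simple fractions and multiples of it.

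By this measure most of the 159 rows rested on a handful of fragments. For the 157 rows with an annotated length, the median was 1.99 fragment equivalents in Ctrl-i Exp.1 and 2.11 in Exp.2, beside 19.98 and 20.5 for the rows above 0 in all libraries. Both Ctrl-i libraries together held up to 2.5 fragment equivalents for 41 rows and up to 5 for 88. In 15 rows each Ctrl-i library held 1 fragment equivalent, within 0.1. Trim67, a brain-expressed ubiquitin ligase of the tripartite motif family, was one of these, at 0 in both Fmr-i1 libraries against 0.13 and 0.11 FPKM in Ctrl-i, and so was Mmp28, a secreted matrix protease, at 0 against 0.32 and 0.29 FPKM. A count of 0 over both libraries of a group allows up to 3 fragments by counting error alone. That limit takes the Ctrl-i value as exact, although it too is a small count and was chosen to be above 0. Of the 157 rows, 51 held no more than 3 fragment equivalents over both Ctrl-i libraries. For those 51 rows a difference was not detectable at this depth, and the limit does not show one for the rows above it.

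The share of rows listed at 0 dropped with the fragments behind them. Of 267 rows with up to 2.5 fragment equivalents over both Ctrl-i libraries, 15.4% were listed at 0. The share was 10.4% of 454 rows over 2.5 and up to 5, 3.74% of 1069 rows over 5 and up to 10, and 1.03% of 1939 rows over 10 and up to 20. Above that it was 0.321% of 2496 rows up to 40 and 1 of 2640 rows up to 80. None of 3618 rows over 80 was listed at 0. The table lists no row at 0 in a Ctrl-i library or in just one Fmr-i1 library, so these are shares of the rows it lists.

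**Figure D3:**
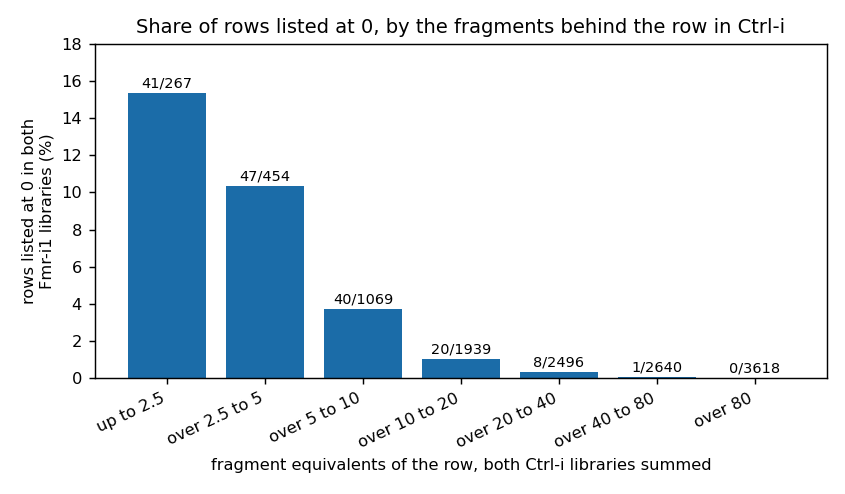
Bars give the percentage of rows listed at 0 in both Fmr-i1 libraries (y axis), with the number of such rows over all rows in the bin above each bar, for bins of the fragment equivalents summed over both Ctrl-i libraries (x axis). The share is 15.4% in the lowest bin and 0 of 3618 rows in the highest.

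Only 16 rows had at least 5 fragment equivalents in each Ctrl-i library, and 4 had at least 10. Those 4 were rows of Ifi27, Lrrc74b, Zfp667 and Tubgcp3. The other 12 were rows of Rps19, Meis2, Map2k7, Wdr13, Gtpbp2, Vps9d1, Tbkbp1, Mlh3, Syn2, Jak3, Ipo9 and Rev3l. Of these 16 genes, Map2k7, Zfp667, Tubgcp3, Vps9d1, Tbkbp1 and Jak3 had no other row.

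Genes with a single row in the table made up 82 of the 158 genes, or 51.9%, beside 82.0% of all 10213 gene symbols. The rule picks rows, so a gene with several rows had more chances to enter. By rows, 82 of the 159 were the only row of their gene, beside 8372 of all 12515 rows. For the 82 single-row genes the whole gene was listed at 0. Their rows were lower in Ctrl-i than those of genes with several rows, with medians of 0.913 and 1.91 FPKM. A single row does not mean a single transcript, since 73 of the 81 such genes found in the annotation have more than 1 annotated transcript and the table lists just one of them.

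Map2k7, a kinase that activates the stress kinase JNK, was the highest of them. It was listed at 0 in both Fmr-i1 libraries, against 4.10 and 12.1 FPKM in Ctrl-i, or 5.82 and 19.3 fragment equivalents, on chromosome 8 at 4238829 to 4247897 (GRCm38). Rcn3, a calcium-binding protein of the endoplasmic reticulum, was at 0 in both Fmr-i1 libraries against 2.81 and 10.0 FPKM in Ctrl-i. Both genes were higher in the second Ctrl-i library than in the first. Acbd7, which carries an acyl-CoA binding domain, had the opposite order, at 0 in both Fmr-i1 libraries against 8.40 and 1.86 FPKM in Ctrl-i.

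Zfp667 and Tubgcp3 were the single rows with at least 10 fragment equivalents in each control. Zfp667, a zinc finger protein, was at 0 in both Fmr-i1 libraries against 5.41 and 4.14 FPKM in Ctrl-i, or 17.9 and 15.4 fragment equivalents, on chromosome 7 at 6286579 to 6307883. Tubgcp3, a core part of the gamma-tubulin complex from which microtubules grow, was at 0 in both Fmr-i1 libraries against 4.76 and 4.01 FPKM in Ctrl-i, or 15.0 and 14.3 fragment equivalents. Its row, on chromosome 8, is a transcript annotated for nonsense-mediated decay, and none of the gene's coding transcripts was listed, so the values say nothing of the coding mRNA.

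The other single rows of the highest 10 had 2.19 to 6.68 FPKM in a Ctrl-i library. Tada3, a subunit of histone acetyltransferase complexes, was at 0 in both Fmr-i1 libraries against 3.42 and 5.96 FPKM in Ctrl-i. Olfm2, a secreted olfactomedin, was at 0 against 6.68 and 2.68 FPKM, and Vps9d1, which carries a domain of Rab5 exchange factors, was at 0 against 4.30 and 2.19 FPKM. The last of these is again a row annotated for nonsense-mediated decay. Srgn, the proteoglycan serglycin of secretory granules in blood cells, was at 0 in both Fmr-i1 libraries against 3.30 and 3.15 FPKM in Ctrl-i. Gm24447, a short noncoding RNA gene, was at 0 against 3.30 and 2.92 FPKM, which is 1 fragment equivalent in each Ctrl-i library. Next below these 10 came Tbkbp1, an adaptor of the kinase TBK1, at 0 against 3.73 and 2.06 FPKM.

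Among the single-row genes, 13 coding genes were listed only by a transcript that the annotation does not call protein coding. Beside Tubgcp3 and Vps9d1 they include Xpo1, the main nuclear export receptor, at 0 in both Fmr-i1 libraries against 0.98 and 4.11 FPKM in Ctrl-i. They also include Tars2, the mitochondrial threonyl-tRNA synthetase, at 0 against 0.64 and 1.60 FPKM, and Trmt1, a tRNA methyltransferase, at 0 against 0.64 and 1.23 FPKM. Another 7 single rows belong to noncoding genes or pseudogenes. Of these CT030657.5, Gm5619 and Gm4972 are processed pseudogenes, whose reads can be shared with a near-identical parent gene. CT030657.5 was at 0 in both Fmr-i1 libraries against 1.60 and 1.41 FPKM in Ctrl-i. The predicted coding gene Gm20422 was at 0 against 1.65 and 1.13 FPKM.

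The other 76 genes had further rows, and in all 76 these stayed above 0 in all 4 libraries. In 60 of them every further row had at least 1 FPKM in all libraries. So for 76 of 158 genes a transcript, and not the gene, was listed at 0. The row listed at 0 was usually a minor part of its gene, with a median of 17.8% of the gene's summed FPKM in Ctrl-i Exp.1 and 16.8% in Exp.2. It was under 10% in both Ctrl-i libraries in 16 genes and over 50% in both in 4.

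The highest row of all belonged to Rps19, a protein of the small ribosomal subunit. It was at 0 in both Fmr-i1 libraries against 35.4 and 13.6 FPKM in Ctrl-i. The gene's other 2 rows summed to 174.3 and 283.8 FPKM in Fmr-i1, against 244.3 and 101.5 FPKM in Ctrl-i, so the groups overlapped. The row listed at 0 was 12.7% and 11.8% of the gene in the controls. Rps19 was the 1 row listed at 0 among 164 rows of ribosomal protein genes.

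Ifi27, an interferon-inducible protein of mitochondria, came second. Its row was at 0 in both Fmr-i1 libraries against 19.5 and 15.5 FPKM in Ctrl-i, or 16.9 and 15.2 fragment equivalents. The gene's other 4 rows summed to 123.0 and 131.1 FPKM in Fmr-i1, against 126.8 and 169.0 FPKM in Ctrl-i. Meis2, a homeodomain transcription factor, was at 0 against 16.7 and 9.17 FPKM for the row listed, a processed transcript, while its other row had 18.2 and 23.8 FPKM in Fmr-i1, against 4.18 and 25.9 FPKM in Ctrl-i.

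Lrrc74b, a leucine-rich repeat protein, gave nearly equal controls, at 0 in both Fmr-i1 libraries against 7.56 and 7.48 FPKM in Ctrl-i. Its other row had 12.9 and 18.5 FPKM in Fmr-i1, against 9.71 and 26.0 FPKM in Ctrl-i. Celf2, an RNA-binding regulator of splicing, was at 0 in both Fmr-i1 libraries against 6.40 and 17.9 FPKM in Ctrl-i for a short transcript of 402 bases. Its other 2 rows summed to 21.1 and 31.7 FPKM in Fmr-i1, against 16.1 and 15.9 FPKM in Ctrl-i, higher in both Fmr-i1 libraries than in either control.

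Pih1d2, a relative of the PIH proteins that help to assemble axonemal dyneins, was lower as a gene too. The row listed at 0, a retained intron, had 7.23 and 13.4 FPKM in Ctrl-i. The remaining row had 51.2 and 48.0 FPKM in Fmr-i1, against 63.1 and 59.2 FPKM in Ctrl-i. The sum of both was 51.2 and 48.0 FPKM in Fmr-i1, against 70.3 and 72.6 FPKM in Ctrl-i, and the groups did not overlap.

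Mfn2, which fuses mitochondrial outer membranes, was at 0 in both Fmr-i1 libraries against 4.81 and 13.5 FPKM in Ctrl-i for the row listed, and its gene sum was 16.3 and 21.1 FPKM in Fmr-i1, against 25.1 and 30.5 FPKM in Ctrl-i. Ino80b, a subunit of the INO80 chromatin remodeller, was at 0 against 7.51 and 6.64 FPKM for a retained intron of 297 bases, which is 2 fragment equivalents in each control. The sum of Ino80b was 16.7 and 11.5 FPKM in Fmr-i1, against 18.9 and 21.6 FPKM in Ctrl-i. In both genes the sums did not overlap between the groups, but this came from the row that the rule set at 0. The other row of Mfn2 had 16.3 and 21.1 FPKM in Fmr-i1, against 20.3 and 17.1 FPKM in Ctrl-i, and that of Ino80b 16.7 and 11.5 FPKM in Fmr-i1, against 11.4 and 15.0 FPKM in Ctrl-i, and these overlapped. Tmem5, a xylosyltransferase that glycosylates dystroglycan, was at 0 in both Fmr-i1 libraries against 2.76 and 9.36 FPKM in Ctrl-i, and its gene sums overlapped between the groups.

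**Figure D4:**
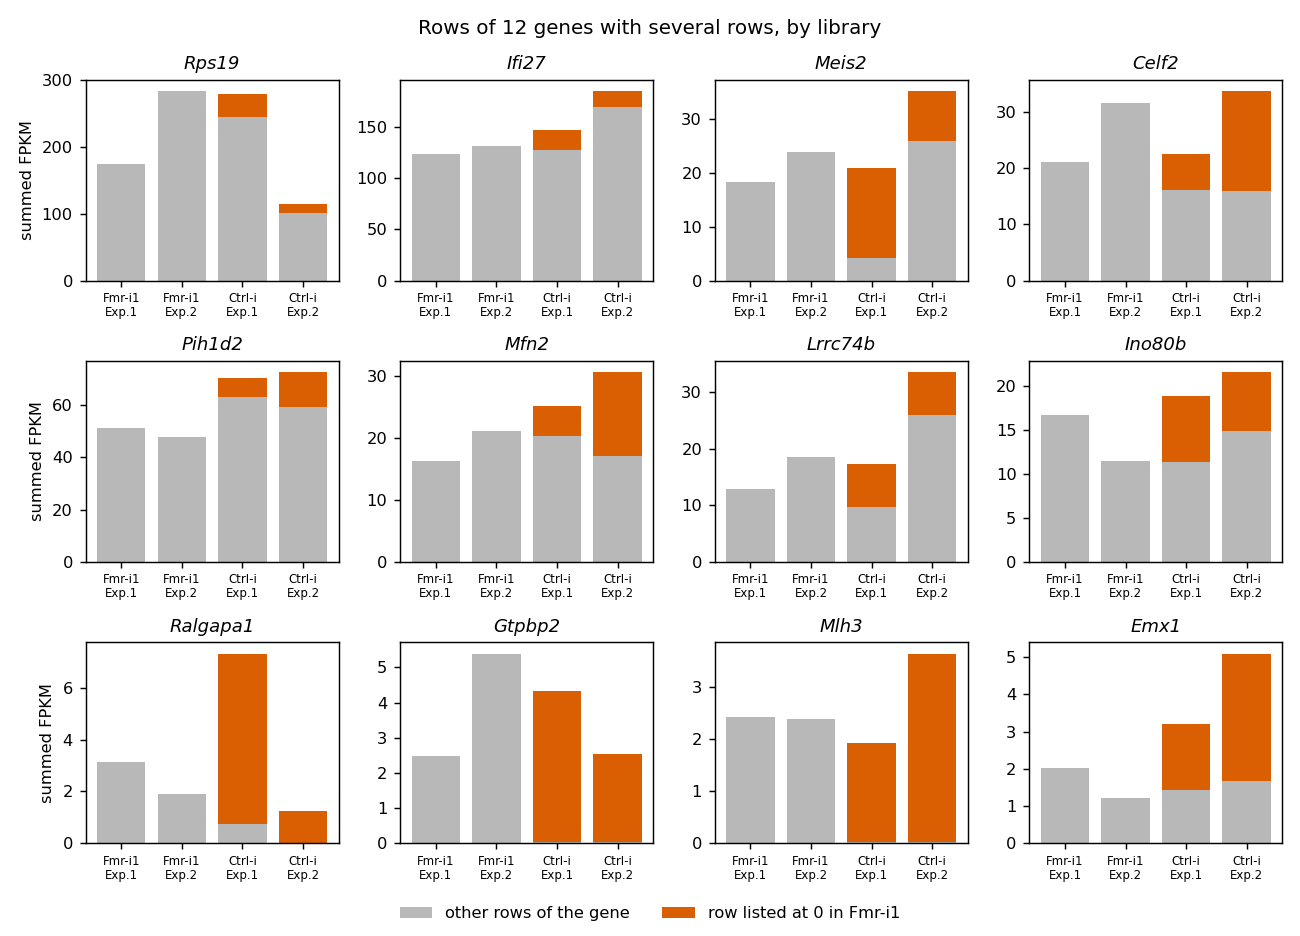
Summed FPKM (y axis, starting at 0) in each library (x axis, Fmr-i1 left of Ctrl-i) for 12 genes with several rows: the 8 with the highest row listed at 0 and the 4 whose row was over 50% of the gene in both controls. Orange is the row listed at 0 in Fmr-i1 and grey the gene's other rows, which are above 0 in all 4 libraries.

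In the most abundant genes the row listed at 0 was a small part. Atp5g3, a subunit of the mitochondrial ATP synthase, kept 450.1 and 539.5 FPKM in its other rows in Fmr-i1, against 675.2 and 386.1 FPKM in Ctrl-i. Its row listed at 0 had 1.65 and 4.32 FPKM in Ctrl-i. Hnrnpa2b1, an RNA-binding protein of RNA transport granules and the 1 gene of this kind among 38 listed FMRP relatives and granule partners in the table, kept 297.4 and 377.3 FPKM in Fmr-i1, against 364.7 and 245.8 FPKM in Ctrl-i. Its row listed at 0, a retained intron, had 2.07 and 0.84 FPKM in Ctrl-i.

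The same held for Aldoa, an enzyme of glycolysis, whose row had 6.06 and 3.64 FPKM in Ctrl-i beside other rows of 338.4 and 311.5 FPKM in Fmr-i1, against 317.4 and 317.7 FPKM in Ctrl-i. Tusc3, a subunit of the oligosaccharyltransferase, had 2.38 and 2.74 FPKM in Ctrl-i in its row and 207.3 and 117.8 FPKM in Fmr-i1, against 172.4 and 104.6 FPKM in Ctrl-i, in the other. Gas5, a noncoding RNA that hosts small nucleolar RNAs, had 0.53 and 0.39 FPKM in Ctrl-i in its row and 108.0 and 113.9 FPKM in Fmr-i1, against 145.6 and 88.7 FPKM in Ctrl-i, in the others. None of these remainders separated the groups by direction except that of Tusc3, which was higher in Fmr-i1 within each experiment.

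Fxyd1, a regulator of the sodium pump, had 4.30 and 3.92 FPKM in Ctrl-i in its row, and 109.0 and 57.2 FPKM in Fmr-i1, against 166.6 and 60.2 FPKM in Ctrl-i, in the others. Matr3, a nuclear matrix protein that binds RNA, had 2.44 and 1.52 FPKM in Ctrl-i in its row, and 64.5 and 96.4 FPKM in Fmr-i1, against 68.7 and 55.1 FPKM in Ctrl-i, in the others. Map2, a protein that binds along neuronal microtubules, had 6.28 and 5.58 FPKM in Ctrl-i in a retained intron of 304 bases, and 57.2 and 70.7 FPKM in Fmr-i1, against 58.9 and 68.9 FPKM in Ctrl-i, in its other 4 rows. The groups overlapped for the remainder of all 3, although that of Fxyd1 was lower in Fmr-i1 within each experiment. The noncoding gene Gm20501 had 1.54 and 1.37 FPKM in Ctrl-i in its row, and 13.1 and 35.2 FPKM in Fmr-i1, against 29.8 and 29.7 FPKM in Ctrl-i, in the other.

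In a few genes another row carried the level in each group. Gtpbp2, a GTPase that rescues stalled ribosomes, had its row listed at 0 in both Fmr-i1 libraries against 4.31 and 2.51 FPKM in Ctrl-i, while the coding row had 2.47 and 5.39 FPKM in Fmr-i1, against 0.02 and 0.02 FPKM in Ctrl-i. The sum was 2.47 and 5.39 FPKM in Fmr-i1, against 4.33 and 2.53 FPKM in Ctrl-i, and overlapped. Mlh3, a DNA mismatch repair and meiotic recombination protein, did the same, with 1.89 and 3.61 FPKM in Ctrl-i in the row listed at 0, and 2.42 and 2.37 FPKM in Fmr-i1, against 0.03 and 0.02 FPKM in Ctrl-i, in the other. In both genes the 2 rows share every exonic base of the row listed at 0, which differs by 1 splice junction. In Ralgapa1, a subunit of a Ral GTPase activating complex, the row listed at 0 had 6.57 and 1.22 FPKM in Ctrl-i, and the other had 3.12 and 1.91 FPKM in Fmr-i1, against 0.75 and 0.01 FPKM in Ctrl-i.

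Emx1, a homeodomain protein of the dorsal telencephalon, was the fourth gene whose row was over 50% of the sum in both controls. Its row had 1.77 and 3.42 FPKM in Ctrl-i, and the remaining row 2.01 and 1.20 FPKM in Fmr-i1, against 1.43 and 1.67 FPKM in Ctrl-i. Urgcp, named for its part in cell proliferation, was the 1 gene with a pair of rows listed at 0. One of these had 0.12 and 2.21 FPKM in Ctrl-i and the other 1.71 and 0.01 FPKM, so each was near 0 in the control where the other was not. The gene's sum was 7.71 and 9.34 FPKM in Fmr-i1, against 7.91 and 4.29 FPKM in Ctrl-i.

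How far a row can be told from the rest of its gene depends on the sequence they share. Of 76 rows that could be compared, 9 had every exonic base in another row of their gene, 27 had at least 90% there, and the median was 76.0%. In 29 rows no splice junction was their own and in 26 just 1 was. Rps19, Pih1d2, Ino80b, Tmem5, Map2, Fxyd1, Atp5g3, Syn2 and Emx1 were among those with none. A row without a junction of its own can still hold bases of its own. Among these named rows the shared part ran from 39.5% in Syn2 to 93.5% in Tmem5. For those with a junction of their own in coding sequence or in a noncoding transcript, the 30 bases across it are shown for 7 genes among those with the highest Ctrl-i level, beside a junction of a row that stayed above 0. Just 1 such junction is shown for each gene, which need not be all that sets the row apart. All 3 junctions of the Ralgapa1 row were its own, as were 2 of 5 in that of Calcoco1. The bases were read from the GENCODE M21 transcripts (GRCm38), 5′ to 3′ on the transcript's strand, with the 15 bases of the exon before the junction in lower case and the 15 after it in capitals.
Ifi27, row listed at 0: ttgagttctccagagCCATGACAGTAGCTG
Ifi27, row above 0: ttgagttctccagagCCAAGGCTGTTGTGG
Meis2, row listed at 0: tccagcaagagtgagGTTTATCAATGCCAG
Meis2, row above 0: gcaagtgaacaactgGTTTATCAATGCCAG
Lrrc74b, row listed at 0: ctgcggattcttattGATATCCAAGTAAGC
Lrrc74b, row above 0: ctgcggattcttattATTTCCAAGAATCCT
Sgce, row listed at 0: taatgtcagcagaagTGTTTATGTCATGGT
Sgce, row above 0: taatgtcagcagaagAATTCCCGTTGCCAT
Ralgapa1, row listed at 0: aaaaccacatgttcaCTATGAGGAGAGAGC
Ralgapa1, row above 0: attgtatcaaaatttCTATGAGGAGAGAGC
Calcoco1, row listed at 0: ctatgacgtggccagCTTCATCTTCCGTGG
Calcoco1, row above 0: ctatgacgtggccagTGCTTTTACAGTGAG
Acad8, row listed at 0: ccttctgcatcgatcAATTGAATATGTCTG
Acad8, row above 0: ccttctgcatcgatcCTTCCTTGGGGCTAA

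The junction of Ifi27 runs on the plus strand of chromosome 12 between 103437524 and 103439401 and skips an exon of 30 bases that a row above 0 includes, and otherwise 99.9% of the row's bases were shared. That of Lrrc74b, on the minus strand of chromosome 16 between 17545642 and 17549778, skips an exon of 96 bases, and that of Sgce, on the minus strand of chromosome 6 between 4694184 and 4711308, skips one of 199 bases. Sgce encodes epsilon-sarcoglycan, a membrane protein linked to dystonia. Its row, a processed transcript, was at 0 in both Fmr-i1 libraries against 3.25 and 4.73 FPKM in Ctrl-i, and the row shown beside it had 19.7 and 17.1 FPKM in Fmr-i1, against 24.3 and 24.6 FPKM in Ctrl-i. The gene's remaining row had 27.2 and 21.4 FPKM in Fmr-i1, against 11.4 and 17.7 FPKM in Ctrl-i, so of the gene's rows above 0 one was lower and the other higher in both Fmr-i1 libraries.

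Meis2 and Ralgapa1 share the exon after the junction and differ in the one before it. The Meis2 junction lies on the minus strand of chromosome 2 between 115868803 and 115872776, and that of Ralgapa1 on the minus strand of chromosome 12 between 55612758 and 55642351. The row of Acad8, a mitochondrial enzyme of valine breakdown, is annotated for nonsense-mediated decay, and its acceptor on the minus strand of chromosome 9 lies 28 bases from the one used by the row above 0. Acad8 was at 0 in both Fmr-i1 libraries against 1.88 and 4.42 FPKM in Ctrl-i, with 4.72 and 13.2 FPKM in Fmr-i1, against 6.07 and 9.51 FPKM in Ctrl-i, in the other row. Calcoco1, an autophagy receptor and coactivator, splices on the minus strand of chromosome 15 from the same donor, 102708546, to an acceptor 806 bases away from the other. It was at 0 in both Fmr-i1 libraries against 3.01 and 3.97 FPKM in Ctrl-i, and its other row had 22.99 and 20.7 FPKM in Fmr-i1, against 23.7 and 28.2 FPKM in Ctrl-i.

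Over all 76 genes the other rows were higher or lower about as often as the rest of the table. Of their 104 other rows, 37 (35.6%) were higher in Fmr-i1 than in Ctrl-i within both experiments, beside 34.0% of all rows above 0, and 19 (18.3%) were lower in both, beside 16.5%. Their median difference on the log2(FPKM + 1) scale was 0.20, beside 0.16 for all rows above 0. That background is itself set by the scaling, since with each library divided by its median it was -0.01 and that of the 104 rows was 0.02.

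With the rows listed at 0 added in, the sums of the genes were more often lower in Fmr-i1, which the choice of the rows fixes in part. Of the 76 sums, 24 (31.6%) were lower in Fmr-i1 within both experiments, beside 15.2% of all 1841 genes with several rows, and 12 (15.8%) were higher in both, beside 35.1%. With median scaling the lower sums were 43.4%, beside 27.8% of all genes with several rows. In 15 genes, or 19.7% beside 9.78%, both Fmr-i1 sums lay below both Ctrl-i sums. Pih1d2, Mfn2, Ino80b, Ifi27 and Calcoco1 were among these, as were Emx1, Wdr13, Syn2 and Tbcd.

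Tomm40l, a relative of the mitochondrial import channel, was another of the 15. The row that was not listed at 0 had 0.90 and 0.52 FPKM in Fmr-i1, against 1.48 and 2.07 FPKM in Ctrl-i. Cdhr4, a cadherin-related protein, had 7.04 and 6.05 FPKM in Fmr-i1, against 8.90 and 21.9 FPKM in Ctrl-i, in its other row, so both of these rows were lower too. Cdkal1, a tRNA-modifying enzyme, had 0.54 and 2.5 FPKM in Fmr-i1, against 1.67 and 3.60 FPKM in Ctrl-i, in its other row, which overlapped. These 3 genes were picked after their values were seen.

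The rows differed from the table in their transcript types, although most were protein coding. Retained introns were 28 of the 157 annotated rows, or 17.8%, beside 3.15% of all rows and 3.68% of the other rows of up to 5 FPKM. Transcripts annotated for nonsense-mediated decay were 9.55%, beside 2.27% and 2.46%, and processed transcripts, which have no open reading frame assigned, were 7.64%, beside 3.36% and 3.73%. Protein coding transcripts were 60.5%, beside 86.4% of all rows. The tilt was mostly in genes with several rows, where 27.6% were retained introns and 44.7% protein coding, while among single-row genes the shares were 8.64% and 75.3%. Other rows of up to 5 FPKM were 8.25% retained introns and 79.4% protein coding in genes with several rows, and 1.81% and 86.3% in single-row genes. The rows were also short, with a median of 1913 bases, beside 2656.5 bases for all rows, and 31.8% were under 1000 bases, beside 14.4%.

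**Figure D5:**
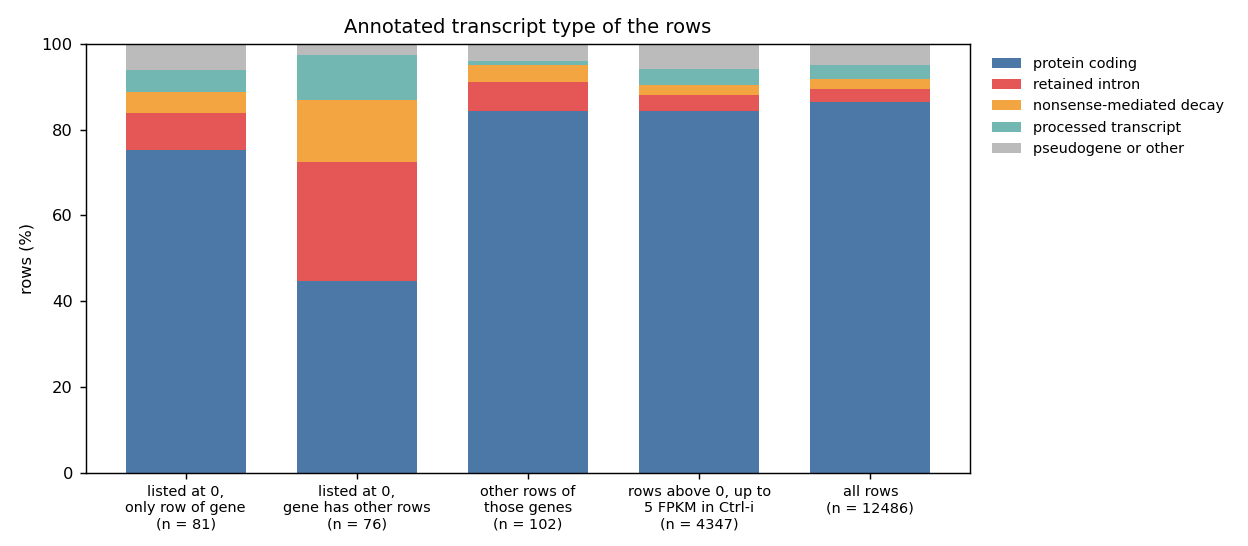
Stacked bars give the percentage of rows (y axis) of each annotated transcript type for the rows listed at 0 in single-row genes and in genes with several rows, the other rows of those genes, the other rows of up to 5 FPKM, and all rows (x axis). Retained introns take 27.6% of the second bar and 3.15% of the last.

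By function the 158 genes were spread thinly. They were sorted by hand into 15 groups after their values were seen, and the largest held 25 genes of chromatin and transcription. The table's other genes were not sorted in this way, so these group sizes have no share of the table to be read against. The rows lay on 20 chromosomes, with 17 of 986 rows (1.72%) on chromosome 11, 15 of 901 (1.66%) on chromosome 7 and 15 of 651 (2.30%) on chromosome 8. Symbol families held a few each, with 6 of 295 rows of zinc finger genes (2.03%), 5 of 191 of solute carriers (2.62%), 4 of 207 of splicing and RNA helicase families (1.93%), and 4 of 183 of E3 ligase families (2.19%), beside the 1.29% of the whole table. None of the 35 kinesin rows, 40 dynein rows, 102 mitochondrial ribosomal protein rows, 56 ion channel rows or 37 G protein-coupled receptor rows was listed at 0.

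Lists of the cilium's own machinery are given beside the 1.29% of the whole table, and most of their genes had rows in it. None of 116 rows of cilia motility and axoneme genes was in the set, and none of 103 rows of intraflagellar transport, BBSome and transition zone genes. At the share of the whole table, lists of this size would hold few such rows, so these counts do not set them apart. The centrosome list gave 1 of 91 rows, that of Tubgcp3. The list of microtubule binding and tubulin modification gave 4 of 106 rows (3.77%), and beside Map2 these were Tbcd, Dcdc5 and Eml5. The tubulin-modifying enzymes Ttll9 and Ttll10, which share the pattern, were left out by symbol and are not counted among them. Tbcd, a chaperone that folds beta-tubulin, had a processed transcript at 0 in both Fmr-i1 libraries against 1.47 and 1.80 FPKM in Ctrl-i. Its other row had 4.19 and 1.86 FPKM in Fmr-i1, against 3.98 and 3.97 FPKM in Ctrl-i, so the groups overlapped. Dcdc5, a doublecortin-domain gene that the annotation calls a pseudogene, was at 0 against 0.72 and 0.32 FPKM for a retained intron. Eml5, a relative of the microtubule-associated EMAP proteins, was at 0 against 0.15 and 0.14 FPKM, which is 1.02 and 1.08 fragment equivalents. Of these 4 rows only that of Eml5 is annotated as protein coding.

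Outside those lists, a few more genes of centrosomes and basal bodies were in the set. Sdccag8, a centrosome protein mutated in a human ciliopathy, was at 0 in both Fmr-i1 libraries against 0.93 and 1.34 FPKM in Ctrl-i for the row listed, while its other row had 13.0 and 12.8 FPKM in Fmr-i1, against 9.37 and 6.82 FPKM in Ctrl-i. Ccdc28b, a modifier of Bardet-Biedl syndrome, was a single row at 0 against 1.55 and 3.49 FPKM. Ccdc68, a component of centriolar appendages, was a single row at 0 against 0.90 and 0.80 FPKM, with 1 fragment equivalent in each control.

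In chromatin and transcription, 13 of the 25 genes had a single row, and the median Ctrl-i level was 1.36 FPKM. Beside Meis2, Ino80b, Tada3 and Pbx2 the group held the histone H3 methyltransferases Ehmt1, at 0 in both Fmr-i1 libraries against 2.63 and 2.58 FPKM in Ctrl-i, and Ehmt2, at 0 against 2.96 and 1.94 FPKM. The other rows of Ehmt2 summed to 17.9 and 23.5 FPKM in Fmr-i1, against 24.2 and 19.4 FPKM in Ctrl-i, whereas Ehmt1 had no other row. After Zfp667, the zinc finger genes were far lower. Zfp563 was at 0 in both Fmr-i1 libraries against 1.47 and 1.30 FPKM in Ctrl-i, Zfp583 at 0 against 0.44 and 0.77 FPKM, and Zfp446 at 0 against 0.11 and 1.05 FPKM.

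RNA processing, nuclear transport and translation gave 15 genes, 4 of them with a single row. Rps19, Celf2, Matr3, Hnrnpa2b1, Gtpbp2 and Xpo1 are described above. Rbm18 and Rbm26, which carry RNA recognition motifs, each had a row at 0 in both Fmr-i1 libraries. In Ctrl-i that row had 1.56 and 1.27 FPKM for Rbm18, and 0.67 and 0.61 FPKM for Rbm26. The other row of Rbm18 had 19.6 and 17.25 FPKM in Fmr-i1, against 15.34 and 15.86 FPKM in Ctrl-i. That of Rbm26 had 2.67 and 1.1 FPKM in Fmr-i1, against 1.36 and 0.27 FPKM in Ctrl-i. Both other rows were higher in Fmr-i1 within each experiment. Ipo9, a nuclear import receptor, was at 0 against 2.02 and 1.24 FPKM for a row annotated for nonsense-mediated decay, and its other row had 5.42 and 10.5 FPKM in Fmr-i1, against 8.28 and 5.33 FPKM in Ctrl-i.

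Kinases and signalling adaptors gave 13 genes, and 11 of these had a single row. Fyn, a Src-family kinase, was at 0 in both Fmr-i1 libraries against 1.69 and 3.10 FPKM in Ctrl-i. Map3k15, a kinase upstream of stress kinases, was at 0 against 0.52 and 0.23 FPKM. Ikbkg, the regulatory subunit of the kinase that releases NF-kappaB, had a row at 0 against 0.49 and 4.76 FPKM, and its other row had 8.16 and 5.79 FPKM in Fmr-i1, against 13.5 and 2.60 FPKM in Ctrl-i. In that gene the row's share of the control sum was 3.49% in one library and 64.7% in the other.

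Genes of immune and white blood cells, another group sorted by hand, gave 9 genes, 7 of them with a single row. Of the interferon response families, 1 of 51 rows was listed at 0, that of Ifi27. Jak3, a kinase of cytokine receptors, was at 0 in both Fmr-i1 libraries against 2.22 and 2.59 FPKM in Ctrl-i, or 8.0 and 10.5 fragment equivalents. Trem2, a receptor of microglia, was at 0 against 1.02 and 3.59 FPKM, and Ccl6, a chemokine of myeloid cells, at 0 against 0.77 and 1.30 FPKM. Tlr13, which senses bacterial RNA, was at 0 against 0.27 and 0.73 FPKM, and Dock2, which activates Rac in white blood cells, at 0 against 0.35 and 0.46 FPKM. Pik3cd, the leukocyte form of the PI3-kinase catalytic subunit, was at 0 against 1.16 and 0.20 FPKM. With Srgn, these were genes of which the whole entry was listed at 0.

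Of 12 listed microglial markers, 10 had no row in either group. Of the 2 in the table, Trem2 was the 1 with a row in the set, and the other was above 0 in all libraries. Whether the content of microglia differed between the flasks was not tested.

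Markers of other cell types were present in differing measure. Neurons had 7 of 16 listed genes in the table, with a summed level of 78.7 and 96.0 FPKM in Fmr-i1, against 101.9 and 91.6 FPKM in Ctrl-i, and Map2 was the 1 of them with a row in the set. Mural and fibroblast cells had 4 of 8 genes, with a summed level of 152.8 and 110.6 FPKM in Fmr-i1, against 77.6 and 57.0 FPKM in Ctrl-i, so that both Fmr-i1 libraries lay above both controls. The same order held in 25.6% of all rows above 0, a share of single rows and not of sums over a list. Within both experiments 2 of these 4 genes were higher in Fmr-i1 and 0 lower. The oligodendrocyte lineage had 5 of 11 genes, with 114.2 and 141.9 FPKM in Fmr-i1, against 100.3 and 106.6 FPKM in Ctrl-i, again with no overlap. Of these 5 genes, 2 were higher in Fmr-i1 within both experiments and 0 lower. Neither list had a row in the set, and the part of these cells in the values of the 159 rows was not tested. Endothelial cells had 1 of 8 genes and choroid plexus epithelium 2 of 6. The markers of astrocytes, a type that shares its progenitors with ependymal cells, had 9 of 11 genes in the table, with a summed level of 2439 and 2409 FPKM in Fmr-i1, against 3443 and 2738 FPKM in Ctrl-i, and none was in the set. Both Fmr-i1 sums lay below both controls, an order that held in 10.8% of all rows above 0, again a share of single rows. Within both experiments 3 of these 9 genes were lower in Fmr-i1 and 0 higher.

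Mitochondria and metabolism gave 14 genes, 11 of them with several rows. Beside Mfn2, Atp5g3, Acad8, Aldoa and Tomm40l, it held Acbd7 and the carrier Slc25a47, a single row at 0 in both Fmr-i1 libraries against 0.71 and 0.62 FPKM in Ctrl-i. Other transporters were also low. Slc46a3, a lysosomal transporter, was a single row at 0 against 1.22 and 3.76 FPKM. Slc11a2, the iron transporter DMT1, had a row at 0 against 2.30 and 0.13 FPKM, with 2.64 and 4.65 FPKM in Fmr-i1, against 3.47 and 5.01 FPKM in Ctrl-i, in its other rows. Slc22a21, an organic cation and carnitine transporter, was a single row at 0 against 0.82 and 1.05 FPKM.

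DNA replication and repair gave 8 genes. Rev3l, the catalytic subunit of the translesion polymerase zeta, had a row at 0 in both Fmr-i1 libraries against 0.93 and 0.67 FPKM in Ctrl-i, and with a transcript of 10713 bases these low values stand for 8.96 and 7.29 fragment equivalents. Its other row had 2.60 and 5.89 FPKM in Fmr-i1, against 3.0 and 2.60 FPKM in Ctrl-i. Rad9a, of the checkpoint clamp, was a single row at 0 against 0.55 and 0.48 FPKM.

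Proteins of ubiquitin transfer, small GTPases and membranes filled most of the remainder. Rnf111, a ubiquitin ligase of TGF-beta signalling, had a row at 0 in both Fmr-i1 libraries against 0.74 and 2.39 FPKM in Ctrl-i, and Fbxo10, an F-box protein, was a single row at 0 against 1.73 and 0.24 FPKM. Sipa1l3, a Rap GTPase activating protein, had a row at 0 against 8.31 and 1.84 FPKM. Tmem120b, Tmem106a and Tmem179 were single rows at 0 against 1.03 and 0.46 FPKM, 0.27 and 1.17 FPKM, and 0.94 and 0.41 FPKM. Wdr13, a WD-repeat protein, had a row at 0 against 8.66 and 1.9 FPKM, and its other row had 12.8 and 4.71 FPKM in Fmr-i1, against 14.4 and 12 FPKM in Ctrl-i.

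At the edge of the rule, the 5 rows inside it that were lowest in Ctrl-i and the 5 rows outside it that were highest in Ctrl-i are given, so their Ctrl-i levels differ by how they were picked. Fbxl8, an F-box protein, was at 0 in both Fmr-i1 libraries against 0.12 and 0.10 FPKM in Ctrl-i, and Zfp1 and Sntb2 were at 0 against 0.27 and 0.06 FPKM and against 0.12 and 0.34 FPKM, beside Trim67 and Eml5 given above. In all, 33 rows just outside it had 0.01 FPKM in both Fmr-i1 libraries, the smallest value the table prints above 0, and the 5 named here are from these. A row of Lgr4, a receptor for R-spondins, had 20.5 and 18.3 FPKM in Ctrl-i, or 93.0 and 94.1 fragment equivalents, more than any row listed at 0. Its other row had 21.8 and 17.0 FPKM in Fmr-i1, against 0.05 and 0.01 FPKM in Ctrl-i, so that the gene's sum was 21.8 and 17.0 FPKM in Fmr-i1, against 20.5 and 18.3 FPKM in Ctrl-i.

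Atp11a, a lipid flippase, was alike, with 0.01 FPKM in both Fmr-i1 libraries against 8.12 and 7.73 FPKM in Ctrl-i in one row, and 6.82 and 11.2 FPKM in Fmr-i1 against 0.10 and 0.25 FPKM in Ctrl-i in another. The remaining 3 rows at the edge were the only rows of their genes. Smarcal1, an annealing helicase at stalled replication forks, had 0.01 FPKM in both Fmr-i1 libraries against 4.35 and 7.02 FPKM in Ctrl-i, Sirt5, a mitochondrial deacylase, 0.01 FPKM in both against 4.67 and 4.94 FPKM, and Atp9a, another flippase, 0.01 FPKM in both against 0.01 and 11.6 FPKM.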

How the data were processed

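Poly(A) RNA of purified multicilia was sequenced in 4 libraries, 2 with Fmr-i1 and 2 with Ctrl-i, mapped from their labels. The authors deposited FPKM for each transcript row, with a length beside it that equals the genomic span in 11275 rows and was not used. The study's methods name Cutadapt, Hist and Cuffdiff on GRCm38/mm10, while HISAT2 2.1.0 and featureCounts 1.5.3 stand in the submitters' processing notes; the source of the FPKM is not settled. No fragment counts were used, since the deposited FPKM are not counts, and a count test was not run. The kit is strand-specific, and no source used here says if the counting was.

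The members, the gene lists and the rule for named genes were chosen with earlier results of these data known. The rule takes the 12 highest rows, the 10 highest single-row genes, the 10 genes with the highest other rows, genes with more than 1 such row, up to 4 of each list and the 5 rows on either side of the rule's edge; genes named beyond it were chosen after their values were seen. A few items that the rule would name are not reported here. Symbols turned into dates were restored in 25 rows. Annotation came from GENCODE M21 (GRCm38), which held the identifiers of 12486 rows and of 157 of the 159. Fragment equivalents are FPKM x transcript length in kb over the step, scanned from 0.6 to 2 on single-row values of 0.3 to 12 FPKM x kb; the scan was tested on simulated data. Directions were taken within each experiment, and differences as log2(FPKM + 1). Python 3.11.15, pandas 2.3.3, numpy 2.4.6 and matplotlib 3.10.9 were used. With 2 libraries per group and rows chosen by the comparison itself, no p-value is given.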

Additional observations from a re-analysis of the deposited data

How the results depend on the processing

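The count of 159 rows was 159 without any 1 of the 4 libraries, which the table fixes, since its zeros come in Fmr-i1 pairs and Ctrl-i has none, and so shows no stability. It was 72 with at least 1 FPKM and 8 with at least 5 FPKM asked of both Ctrl-i libraries, and 241 with values below 0.1 FPKM taken as 0. With rows summed by gene it was 82 genes. With at least 5 or 10 fragment equivalents in each Ctrl-i library, limits chosen after seeing the data, it was 16 and 4. Asking for a mean of at least 1 FPKM left 20 single-row genes of 82. The median Ctrl-i level of 1.35 FPKM was 1.45 with median scaling and 1.22 to 1.33 in a single Ctrl-i library.

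Of the other rows, 23 rather than 37 were higher in Fmr-i1 in both experiments with median scaling, or 22.1% beside 23.8% of all rows above 0. Without 1 library, 39 to 49 other rows were higher and 23 to 29 lower. These ask all remaining Fmr-i1 libraries to lie beyond all remaining Ctrl-i libraries, not a direction within each experiment. The like counts with all 4 libraries were 26 and 12, and leaving 1 out can only raise them. The 29 came without Fmr-i1 Exp.1. Lower gene sums ran from 25 to 32 in the same way, where the like count with all 4 libraries was 15. The median log2 difference of the other rows, 0.20, was 0.12 with a pseudocount of 5 FPKM, 0.015 with median scaling, 0.028 with quantile normalization, 0.15 without mitochondrially encoded RNAs, and 0.15 to 0.22 without 1 library. For the gene sums it was -0.10, was -0.26 with median scaling and with quantile normalization, and ran from -0.17 to -0.02 without 1 library.

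Without the replicate block, both Fmr-i1 libraries were asked to lie beyond both Ctrl-i libraries. Then 15 gene sums were lower in Fmr-i1 rather than 24, or 19.7% beside 9.78% of all genes with several rows. Of the 104 other rows, 12 were lower rather than 19, and 26 higher rather than 37. Over all rows above 0 the shares were 10.8% lower and 25.6% higher. Libraries of one experiment did not deviate together, with a correlation of -0.08 across rows, which are not independent replicates. Counts were taken as moved beyond 1.5 times the reported one, and medians beyond 1 SD between the experiments or the control libraries. By this 47 of the values tried stayed and 19 moved, with no median changing sign; where a cause is not named it was not tested. Depth limits the rest: most rows rest on fewer than 5 fragment equivalents in a control library.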
